A study of Mus musculus with 6 samples.

Results

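The RNAs described here are 10 genes whose products are long non-coding RNAs or transcripts that carry small RNAs in their introns or exons: Neat1, Malat1, Gas5, Snhg1, Snhg12, Snhg15, Mir22hg, Mir142hg, Mir155hg and AU020206. They were picked by gene name with their FPKM values in view (FPKM scales the fragments of a gene by its transcript length and by the depth of the library), so their differences between the groups are a description: no p of theirs is given, and which of them passed the limma threshold is told only beside the share of all genes that passed. All 10 were found among the 55401 rows of the deposited table and all 10 were among the 12084 genes at 0.5 FPKM or more in at least 3 of the 6 libraries. Total RNA came from mouse bone-marrow-derived macrophages (BMDM), phagocytes grown from marrow for 7 days with L929-conditioned medium, and was depleted of ribosomal RNA. The L-OHP group (n = 3) was exposed for 12 h to 5 µM L-OHP, a short name for oxaliplatin, a platinum drug used in chemotherapy. The L-OHP+FUC group (n = 3) received 250 µg/ml of fucoidan, a sulfated seaweed polysaccharide, for 12 h and then the same drug exposure, so all 6 samples had the drug. Cells without the drug, or with fucoidan alone, were not analysed here. Whether replicates were separate cultures or animals is not given by the labels, so p-values measure the spread among these samples alone, and it may be technical.

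Neat1 and Malat1 are long RNAs that stay in the nucleus: Neat1 is the scaffold of paraspeckles, and Malat1 gathers at nuclear speckles, where splicing factors are stored. The snoRNA hosts Gas5, Snhg1, Snhg12 and Snhg15 are spliced like mRNAs, release small nucleolar RNAs from their introns, and leave a spliced RNA with little coding potential that is commonly degraded during translation by nonsense-mediated decay. The miRNA hosts Mir22hg, Mir142hg and Mir155hg are primary transcripts that Drosha cuts to free a hairpin, which Dicer turns into mature miRNAs; miR-142 is characteristic of blood cells, and miR-155 is induced in macrophages by inflammatory signals. AU020206 is an intergenic RNA of unassigned function.

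The mature miRNAs of the 3 host transcripts are shown because they are what these hosts are known for, and because the pair at the Mir142 locus bears on the Mir142hg value below. Sequences are from RefSeq (GRCm38.p6), written 5′ to 3′, with the seed, bases 2 to 8, in capitals. The libraries were made from long fragments and measured the host transcripts, not the mature miRNAs.
miR-22-5p: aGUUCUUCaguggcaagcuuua
miR-22-3p: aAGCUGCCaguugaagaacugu
miR-142a-5p: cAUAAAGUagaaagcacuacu
miR-142a-3p: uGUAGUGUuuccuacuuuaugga
miR-142b: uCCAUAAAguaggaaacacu
miR-155-5p: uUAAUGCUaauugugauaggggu
miR-155-3p: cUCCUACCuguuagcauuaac
All 7 seeds differ. The mature miR-142b lies on the minus strand at chr11:87756906-87756925, and all 20 of its bases are antisense to miR-142a-3p, which lies on the plus strand at chr11:87756903-87756925.

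Across the 10 RNAs, 8 were lower and 1, Mir142hg, was higher in L-OHP+FUC at a limma adjusted p under 0.05, and Mir155hg did not pass. Among all tested genes 27.0% passed in either direction, 19.3% as lower and 7.67% as higher. Values of the groups did not overlap for the same 9 RNAs, against 30.9% of all tested genes without overlap on the lower side and 16.1% on the higher side. Since these RNAs were chosen from this contrast, nothing is read from the counts. In the authors' deposited table, 5 of the 10 carry the authors' mark of significance (Neat1, Malat1, Snhg15, Mir142hg and AU020206), against 2.65% of all 55401 rows. Most of those rows are under the filter used here, so this is not the share among expressed genes. The lack of a mark is not read as the lack of a difference.

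**Figure D1:**
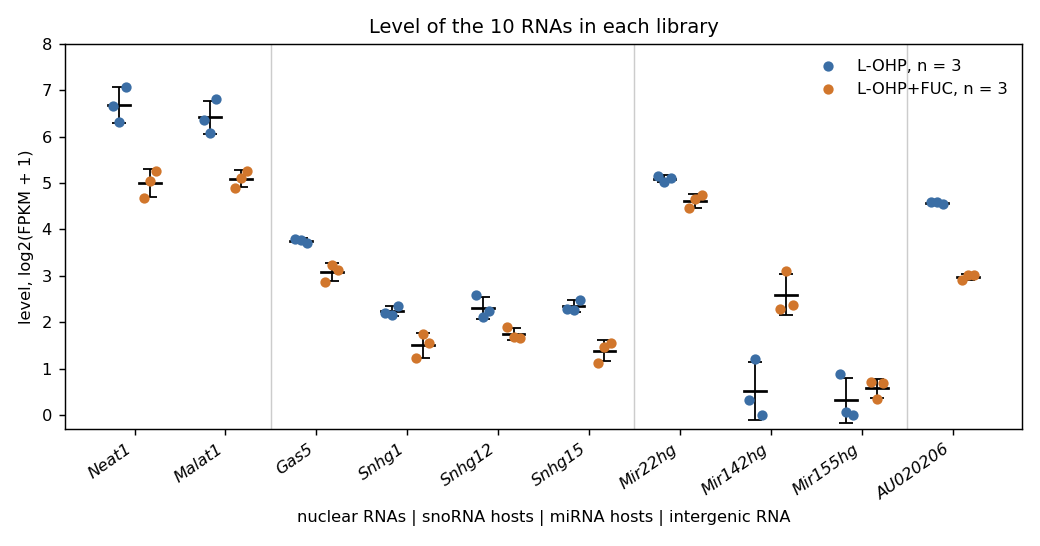
Level of each of the 10 RNAs on the log2(FPKM + 1) scale (y axis) in the 3 L-OHP and 3 L-OHP+FUC libraries (points), with the group mean (line) and SD (bars). Neat1 and Malat1 are at the top in both groups, 8 RNAs have all L-OHP+FUC points below all L-OHP points, Mir142hg has them above, and Mir155hg overlaps.

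Neat1 (chr19:5824708-5845478, minus strand, GRCm38; a single-exon transcript of 20771 bases at its longest) was the most abundant of the 10 with L-OHP. Its level was 100.5, 78.4 and 133.6 FPKM under L-OHP alone and 24.49, 32.04 and 37.45 FPKM in the L-OHP+FUC libraries, each in replicate order as throughout. Every L-OHP library was above every L-OHP+FUC library, and the lowest L-OHP value was 2.09 times the highest L-OHP+FUC value. The means were 104 ± 27.8 and 31.3 ± 6.51 FPKM (SD, n = 3), 3.33-fold lower with fucoidan, with a log2 fold change of -1.69 (SE 0.23) on the log2(FPKM + 1) scale used for all fold changes here. Among the 480 tested genes annotated as lncRNA, Neat1 ranked 3 by mean level with L-OHP and 8 after fucoidan was added.

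Malat1 lies 22035 bases from Neat1 on the same strand (chr19:5795690-5802672, a transcript of 6983 bases at its longest). Its level was 80.83, 67.03 and 110.8 FPKM with L-OHP and 28.92, 33.58 and 37.38 FPKM with L-OHP+FUC. In both nuclear RNAs L-OHP replicate 3 was the highest library and L-OHP+FUC replicate 1 the lowest, and the groups did not overlap. The Malat1 means were 86.2 ± 22.4 and 33.3 ± 4.24 FPKM (SD, n = 3), 2.59-fold lower, with a log2 fold change of -1.32 (SE 0.19). The ratio of Neat1 to Malat1 FPKM was 1.24, 1.17 and 1.21 with L-OHP and 0.847, 0.954 and 1.00 with L-OHP+FUC. Neat1 was thus the higher of the pair in every L-OHP library and in none of L-OHP+FUC replicates 1 and 2, while the third was level. The spread among L-OHP libraries was wide for both RNAs, as their SD shows.

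The annotation holds 3 short rows inside Neat1 that mark conserved blocks near its 5′ end, of which Gm27505 was the only one at 1 FPKM or more. The rows on either side of it were near 0: Gm28006 was at 0.0564 FPKM or less and Gm27533 at 0.00256 FPKM or less in every library. Gm27505 (chr19:5844638-5844747, minus strand, 110 bases) lies within an exon of 3 of the 4 annotated Neat1 transcripts and starts 731 bases from the Neat1 5′ end. Its sequence, shown because its row was listed at a higher FPKM than Neat1, is from the GENCODE M21 transcripts.
Gm27505: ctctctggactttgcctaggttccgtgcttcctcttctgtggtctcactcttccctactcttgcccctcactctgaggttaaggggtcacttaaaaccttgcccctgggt
The Gm27505 row was at 885, 822 and 1190 FPKM with L-OHP and 219, 293 and 318 FPKM with L-OHP+FUC, a log2 fold change of -1.80 (SE 0.20). Reads of this block belong to Neat1 as well, so the row is not independent of Neat1. How reads were divided between Neat1 and the short rows inside it is not known. The Gm27505 level is therefore not read as a local enrichment. Neat1 has a short form that ends near its 5′ part and a long form, and the gene-level row does not separate them.

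Frmd8, a coding gene 4224 bases from Neat1, did not pass, at 11 ± 1.30 FPKM with L-OHP and 13.5 ± 1.32 FPKM with L-OHP+FUC (log2 fold change 0.27, SE 0.12, adjusted p = 0.126). Of other nuclear lncRNAs, Firre, Airn and Tug1 are given with the list of other lncRNAs further on, and 2 were under the filter. Kcnq1ot1 was at 0.0816 ± 0.0132 and 0.0179 FPKM on average, and Xist was at 0.095 FPKM or less in every library.

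All 4 snoRNA hosts were lower in L-OHP+FUC, with a median log2 fold change of -0.71 against -1.51 for the nuclear pair and -0.10 for all tested genes. The log2(FPKM + 1) scale shrinks the change of the low hosts more than that of the nuclear pair. By the ratio of means the hosts were 1.67-fold (Gas5) to 2.50-fold (Snhg15) lower, beside 2.59-fold for Malat1 and 3.33-fold for Neat1. Gas5 (chr1:161034422-161038539, plus strand), named for its accumulation in growth-arrested cells, was the most abundant of the 4 hosts. It was at 12.92, 12.67 and 12.0 FPKM with L-OHP and 6.27, 8.392 and 7.779 FPKM with L-OHP+FUC. The L-OHP libraries lay close together and above all L-OHP+FUC libraries. Gas5 means were 12.5 ± 0.475 and 7.48 ± 1.09 FPKM (SD, n = 3), 1.67-fold lower (log2 fold change -0.68, SE 0.11).

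Snhg1 (chr19:8723475-8726443, plus strand), host of a run of box C/D snoRNAs, was at 3.574, 3.468 and 4.135 FPKM with L-OHP and 1.332, 2.368 and 1.913 FPKM with L-OHP+FUC. Its groups did not overlap, and the means of 3.73 ± 0.359 and 1.87 ± 0.519 FPKM differed 1.99-fold (log2 fold change -0.73, SE 0.15). Snhg15 (chr11:6525591-6528760, minus strand), which carries Snora9, had the largest fall on the log2 scale among the 4 hosts. Its values were 3.878, 3.769 and 4.614 FPKM with L-OHP and 1.186, 1.774 and 1.938 FPKM with L-OHP+FUC, and the groups were well apart. The Snhg15 means were 4.09 ± 0.46 and 1.63 ± 0.395 FPKM, 2.50-fold lower (log2 fold change -0.96, SE 0.14).

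Snhg12 (chr4:132308623-132311024, plus strand), host of Snora16a, Snora44, Snora61 and Snord99, showed the smallest log2 fold change of the 4 hosts on the log2(FPKM + 1) scale, while by the ratio of means Gas5 was the smaller. Its level was 4.973, 3.342 and 3.719 FPKM with L-OHP and 2.708, 2.206 and 2.18 FPKM with L-OHP+FUC. The groups did not overlap, but L-OHP replicate 1 stood above the others, and the lowest L-OHP value was 1.23 times the highest L-OHP+FUC value. The means of 4.01 ± 0.854 and 2.36 ± 0.298 FPKM differed 1.70-fold (log2 fold change -0.56, SE 0.14), and this call was lost in 9 of 14 alternative settings, as given in the closing section.

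Within the 4 snoRNA hosts the table lists 24 snoRNA rows of 60 to 137 bases, of which 8 reached 1 FPKM in a library. The highest was Gm22357, a snoRNA row inside Gas5, at 17.8, 13.8 and 16.9 FPKM with L-OHP and 7.31, 8.5 and 7.85 FPKM with L-OHP+FUC (log2 fold change -0.94, SE 0.12). Its groups did not overlap, nor did those of Gm25789, with means of 2.15 and 0.232 FPKM. The other Gas5 snoRNA rows at 1 FPKM or more overlapped: Mir5117 had means of 1.96 and 1.38 FPKM, a Snord80 row 2.25 and 1.53 FPKM, and Gm22489 0.126 and 0.987 FPKM, higher on average with fucoidan. In Snhg1 the highest rows were Gm24452, with means of 2.71 and 1.33 FPKM, and Gm25894, with means of 1.69 and 0.496 FPKM, and both overlapped between the groups, as did Snora16a in Snhg12, with means of 0.488 and 0.405 FPKM. All these snoRNA rows lie within an exon of at least 1 annotated transcript of their host, and Gm22357 within 4 of the 25 Gas5 transcripts, so host and snoRNA reads were not told apart.

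Of the nearest tested protein-coding genes of the snoRNA hosts, 1 was higher and 1 was lower. Slc3a2, a heavy chain of amino acid transporters that lies 106 bases from Snhg1 on the opposite strand, was higher with fucoidan, at 187 ± 15.8 FPKM with L-OHP and 302 ± 29.2 FPKM with L-OHP+FUC (log2 fold change 0.69, SE 0.11, adjusted p = 0.0103). Rc3h1, which encodes the mRNA-decay factor roquin-1 and is a neighbour of Gas5, was lower, at 4.34 ± 0.444 and 2.28 ± 0.39 FPKM (log2 fold change -0.71, SE 0.12, adjusted p = 0.0107). Zbtb37, which overlaps Gas5 on the opposite strand, was lower (log2 fold change -0.55, SE 0.11, adjusted p = 0.0138). Because the use of strand in counting is not given in the sources used here, reads of that overlap cannot be assigned.

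Promoter sequence was available for 8 of the 10 genes, in 9 RefSeq windows of 250 bases before to 50 bases after a start. Of the snoRNA hosts, Gas5 and Snhg15 have the palindrome TGACGTCA, which CREB and ATF factors bind, and Snhg1 and Snhg12 do not. It occurs in 1 of the 2 windows of Gas5, in that of Snhg15 and in 1.79% of all 32851 windows. Any part of it in the levels of these hosts was not tested. Both stretches are shown with it in capitals, from GRCm38.p6. The Gas5 stretch is at chr1:161035104-161035195 on the plus strand and the Snhg15 stretch at chr11:6528825-6528864 on the minus strand. The second run of capitals in Gas5 begins at one of its RefSeq starts and is a 5′TOP motif, a C followed by at least 4 pyrimidines, the start typical of mRNAs of the translation machinery.
Gas5: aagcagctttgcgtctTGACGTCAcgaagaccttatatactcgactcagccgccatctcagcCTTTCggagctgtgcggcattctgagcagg
Snhg15: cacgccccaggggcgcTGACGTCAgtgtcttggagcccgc
The palindrome begins 46 bases before this start in Gas5 and 88 bases before the start in Snhg15. A 5′TOP motif at the exact start was present in 2.51% of all windows and in 1 of the 9 windows here. Both strands were also searched for 5 other motifs. The E-box CACGTG occurred in Snhg15 and in 7.15% of all windows, while TGACNNNGC (12.4%), TGANTCA (7.81%), GGGA with CC after any 4 bases (20.7%) and GAAA with GAAA after any 2 bases (3.44%) were found in none of the 9. These matches describe letters in these windows only.

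The 3 miRNA hosts went different ways. Mir22hg (chr11:75461539-75466676, plus strand) was abundant and modestly lower, at 34.63, 31.42 and 33.7 FPKM with L-OHP and 20.97, 24.23 and 25.96 FPKM with L-OHP+FUC. The groups did not overlap, and the means of 33.3 ± 1.65 and 23.7 ± 2.54 FPKM (SD, n = 3) differed 1.40-fold (log2 fold change -0.47, SE 0.10). The Mir22 row of 95 bases, which lies within an exon of both annotated Mir22hg transcripts, was at 27.7, 32.1 and 21 FPKM with L-OHP and 23.6, 26.3 and 23.5 FPKM with L-OHP+FUC. Its groups overlapped, and it did not pass (log2 fold change -0.11, SE 0.15, adjusted p = 0.609). The difference between the host row and the hairpin row was not tested. Of the neighbours of Mir22hg, Prpf8, a core splicing factor, was higher, at 40.5 ± 0.614 and 50.6 ± 0.233 FPKM (log2 fold change 0.31, SE 0.07, adjusted p = 0.0228).

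Mir142hg (chr11:87755577-87757270, plus strand), the host of the blood-cell miRNA miR-142, was the 1 RNA of the 10 on the higher side. It reached 0.5 FPKM in 3 libraries only through the L-OHP+FUC group, so a gene with its L-OHP values had to differ to be among those tested. It was at 0.2566, 1.321 and 0 FPKM with L-OHP and 3.903, 7.617 and 4.213 FPKM with L-OHP+FUC, where 0 stands for a row listed at 0. Every L-OHP+FUC library was above every L-OHP library. The means of 0.526 ± 0.701 and 5.24 ± 2.06 FPKM (SD, n = 3) differed 9.97-fold, and the log2 fold change was 2.08 (SE 0.35). The fold rests on L-OHP replicate 2: without it the ratio of means is 40.9, and without L-OHP replicate 1 or 3 it is 7.94 or 6.65. The row rests on a single transcript of 269 bases in 2 exons, and at the depth implied by the steps between low FPKM values it held an estimated 2.3, 13 and 0 reads with L-OHP and 39, 65 and 37 reads with L-OHP+FUC.

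The hairpin that makes miR-142 lies between both exons of the annotated Mir142hg, and the Mir142b row of 115 bases covers it on the opposite strand. That row moved the other way from Mir142hg, at 26.3, 25.2 and 23.8 FPKM with L-OHP and 5.86, 8.53 and 9.26 FPKM with L-OHP+FUC (log2 fold change -1.57, SE 0.16, adjusted p = 0.00378). The groups did not overlap. The Mir142 row on the host's own strand was at most 0.317 FPKM with L-OHP and listed at 0 in each L-OHP+FUC library. The Mir142b row shares no base with the annotated exons of Mir142hg. Reads of the host's intron and of the antisense row cover the same bases, and without a stated use of strand they cannot be told apart.

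Multiplied by row length, the FPKM of both rows become shares of a library's fragments (FPKM × kb), which can be added. Mir142hg and Mir142b summed to 3.1, 3.25 and 2.73 FPKM × kb with L-OHP and to 1.72, 3.03 and 2.2 with L-OHP+FUC. The sums overlapped between the groups, with L-OHP+FUC replicate 2 above L-OHP replicate 3, unlike either row alone. The Mir142hg row held 2.23%, 10.9% and 0% of the sum with L-OHP and 60.9%, 67.6% and 51.6% with L-OHP+FUC. The part played in the Mir142hg difference by how fragments of this locus were split between the rows was not tested.

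**Figure D2:**
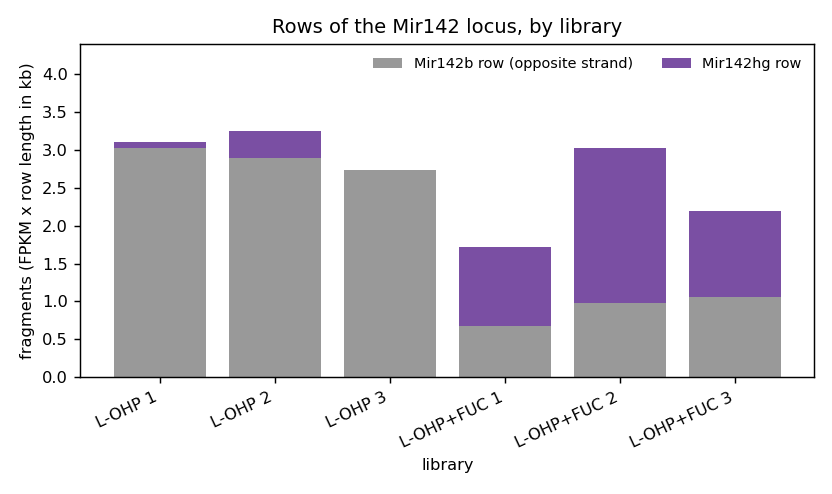
Fragments as FPKM × row length in kb (y axis) of the Mir142b row (grey) and the Mir142hg row (purple), stacked, in each of the 6 libraries (x axis). The grey part shrinks from 2.73 to 3.03 with L-OHP to 0.674 to 1.06 with L-OHP+FUC while the purple part grows, and the stacked heights of the groups overlap.

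Mir155hg (chr16:84703167-84715245, plus strand), the host of miR-155, was low in both groups. It was at 0.8389, 0.03872 and 0.00692 FPKM with L-OHP and 0.6304, 0.2669 and 0.615 FPKM with L-OHP+FUC. L-OHP replicate 1 was the highest of all 6 libraries and the other L-OHP libraries were the lowest. The means of 0.295 ± 0.471 and 0.504 ± 0.206 FPKM differed by less than the SD of the L-OHP group (log2 fold change 0.26, SE 0.25). At the implied depth it held an estimated 38, 2.0 and 0.31 reads with L-OHP and 32, 12 and 27 reads with L-OHP+FUC. The Mir155 row was at 0.165 FPKM or less in every library. Among the 480 tested lncRNA genes Mir155hg ranked 478 and Mir142hg 463 by mean level in the L-OHP group, while Mir22hg ranked 10. In that group Mir155hg and Mir142hg are thus outside what the working name "abundant" describes. After fucoidan was added Mir142hg ranked 36, Mir155hg 324 and Mir22hg 9, so for Mir142hg this holds in the drug-only group alone.

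AU020206 (chr7:75769038-75782099, minus strand) had the tightest values of the 10. It was at 23.12, 22.97 and 22.59 FPKM with L-OHP and 6.467, 7.063 and 7.121 FPKM with L-OHP+FUC. The lowest L-OHP value was 3.17 times the highest L-OHP+FUC value, the widest gap among the 8 lower RNAs. The means were 22.9 ± 0.272 and 6.88 ± 0.362 FPKM (SD, n = 3), 3.33-fold lower (log2 fold change -1.60, SE 0.08). Its neighbours did not pass: Akap13, a kinase anchor protein, had a log2 fold change of -0.25 (adjusted p = 0.117) and Klhl25, a ubiquitin ligase adaptor, one of -0.01 (adjusted p = 0.959).

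On the log2(FPKM + 1) scale, which shrinks low genes, the 8 lower RNAs ran from Neat1, AU020206 and Malat1 at the large end, through Snhg15, Snhg1, Gas5 and Snhg12, to Mir22hg. The neighbours in this order lie within about 1 SE of each other for Neat1 and AU020206, for Snhg1 and Gas5, for Gas5 and Snhg12, and for Snhg12 and Mir22hg. In 8 of the 10 RNAs the lowest L-OHP+FUC value was in replicate 1.

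**Figure D3:**
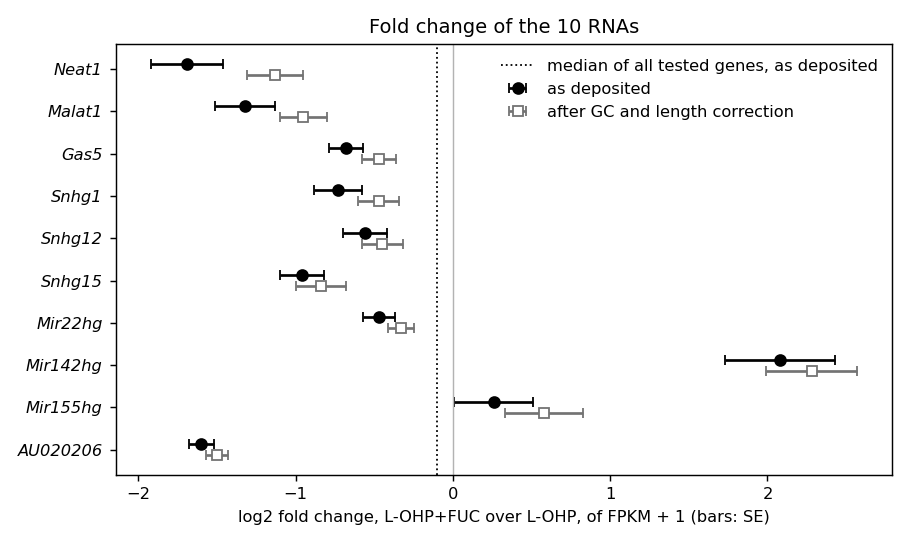
Log2 fold change of each RNA, L-OHP+FUC over L-OHP (x axis, on FPKM + 1), as deposited (filled circles) and after a correction of each library for GC content and transcript length (open squares), with SE bars. The dotted line is the median of all tested genes, -0.10. The 8 lower RNAs stay left of 0 under both, and Neat1 moves from -1.69 to -1.13.

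Base composition moved with the comparison. The median log2 fold change of tested genes was -0.38 for transcripts under 40% GC, -0.27 at 40% to 45%, -0.15 at 45% to 50%, -0.03 at 50% to 55%, 0.08 at 55% to 60% and 0.11 from 60%. Per library, genes under 45% GC deviated from their mean by a median of 0.15, 0.07 and 0.22 with L-OHP. With L-OHP+FUC the deviation was -0.25, -0.18 and -0.01, so it varied within the groups too. Ordered by this deviation, the libraries stand as they do by Neat1 and by Malat1 FPKM. Its part in the levels of these RNAs was not tested. Of the 8 lower RNAs, 7 have a GC content between 40.5% (Snhg1) and 47.6% (Snhg12), Snhg15 has 53.9%, and the higher Mir142hg has 59.1%. After the correction for GC content and length, Neat1 stood at -1.13 (SE 0.18), Malat1 at -0.95 (SE 0.15), AU020206 at -1.50 (SE 0.07), Snhg15 at -0.84 (SE 0.16) and Mir142hg at 2.28 (SE 0.29). The median of the 10 went from -0.71 to -0.47 and that of all tested genes from -0.10 to 0.01. Neat1 (47.3% GC, 20771 bases) moved further under the correction than AU020206 (46.7% GC, 3009 bases). The parts of GC content and of length in these shifts were not separated.

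**Figure D4:**
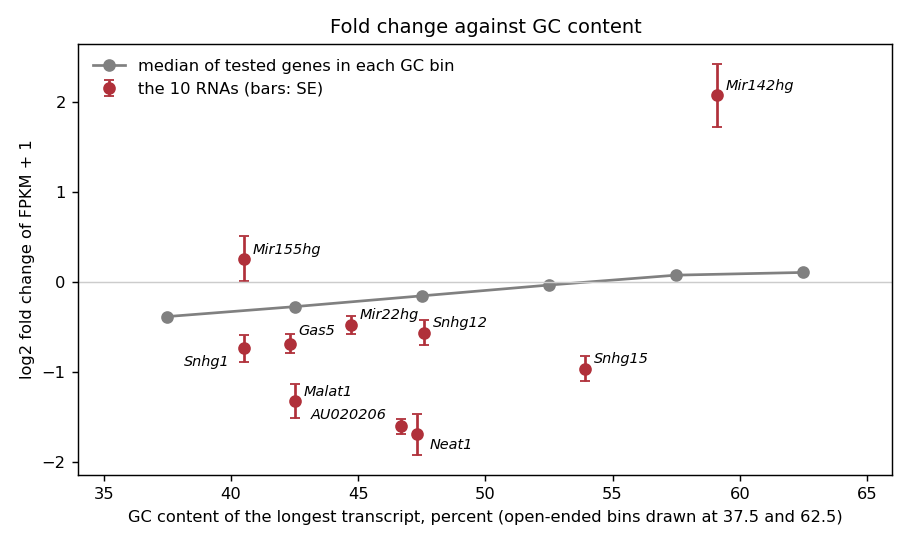
Log2 fold change on FPKM + 1 (y axis) against GC content of the longest transcript (x axis) for the 10 RNAs (red, with SE) and the median of tested genes in 6 GC bins (grey). The grey medians climb from -0.38 to 0.11, and all 8 lower RNAs lie under them.

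Other annotated lncRNAs were also mostly on the lower side. Of the 470 tested lncRNA genes outside the 10, 188 were lower and 5 were higher, with a median log2 fold change of -0.40, beside 19.3% lower and a median of -0.10 for all tested genes. After the GC and length correction 116 were lower and 13 higher (24.7% lower, beside 11.9% of all tested genes). The calls in both directions numbered 193, and 105, 94 and 101 without L-OHP replicate 1, L-OHP+FUC replicate 1 and L-OHP+FUC replicate 2. The 5 higher genes, named after their values were seen, were AI506816 (log2 fold change 0.81, adjusted p = 0.00432), CAAA01066123, Gm43579, Peg13 and Gm11613. The annotated class is not purely non-coding: it holds Ifi30, a lysosomal thiol reductase gene, at rank 2, because the annotation types it as a processed transcript.

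As a share of summed FPKM, annotated lncRNA genes made up 0.709% ± 0.00404 with L-OHP and, with fucoidan added, 0.400% ± 0.0213 (SD, n = 3). By an exact permutation test, two-sided, p was 0.1, which is the lowest value this design of 3 against 3 can reach. The number of lncRNA genes at 1 FPKM or more was 308 ± 6.81 and 176 ± 12.7, again with p = 0.1 by the exact permutation test. The 10 RNAs together held 0.0883% ± 0.0154 and 0.0357% ± 0.00503 of summed FPKM. In these bulk samples, fewer cells of a type and less RNA per cell cannot be told apart.

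Host genes that encode proteins were near the background. Of 208 tested protein-coding genes with a snoRNA inside, 45 (21.6%) were lower and 13 higher, with a median log2 fold change of -0.09, and after the GC and length correction 19 were lower and 33 higher. Of 537 protein-coding miRNA hosts, 100 (18.6%) were lower and 46 higher, with a median of -0.04, and after the correction 63 were lower and 74 higher. In both sets the correction thus turned the balance of calls, as it did among all tested protein-coding genes. Of those, 1830 were lower and 885 higher before it, and 1173 were lower and 1282 higher after it. The calls together fell from 58 to 14 among snoRNA hosts and from 146 to 50 among miRNA hosts without L-OHP+FUC replicate 2, to 20 and 60 without L-OHP+FUC replicate 1, to 22 and 62 without L-OHP replicate 1, and to 33 and 91 without L-OHP replicate 3.

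The other non-coding snoRNA hosts were described from a list, of which 9 were tested. Of these, 5 (55.6%) were lower, beside 19.3% of all tested genes, none was higher, and the median was -0.46. Zfas1, host of box C/D snoRNAs next to Znfx1, was at 18.1, 20.4 and 15.1 FPKM with L-OHP and 4.47, 5.46 and 5.91 FPKM with L-OHP+FUC (log2 fold change -1.58, SE 0.14, adjusted p = 0.00339), a larger difference than in any of the 4 hosts above. Snhg20 was at 2.69 ± 0.348 and 1.02 ± 0.029 FPKM (log2 fold change -0.86, adjusted p = 0.00498), and Snhg17 at 2.33 ± 0.082 and 1.43 ± 0.218 FPKM (-0.46, adjusted p = 0.0206). After the GC and length correction 4 were lower, and 2 without L-OHP replicate 1, L-OHP+FUC replicate 1 or L-OHP+FUC replicate 2. Both tested genes of the other miRNA host list were lower: Gm26532 with a log2 fold change of -0.92 (adjusted p = 0.00639) and Mir17hg, the host of the miR-17-92 cluster, with -0.53 (adjusted p = 0.0151), which became -0.24 (adjusted p = 0.165) after the correction. Of 10 other tested long non-coding RNAs 4 were lower and none higher, led by Tug1 (-0.87, adjusted p = 0.00755), Airn (-0.86, adjusted p = 0.00764) and Firre (-1.02, adjusted p = 0.00852).

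**Figure D5:**
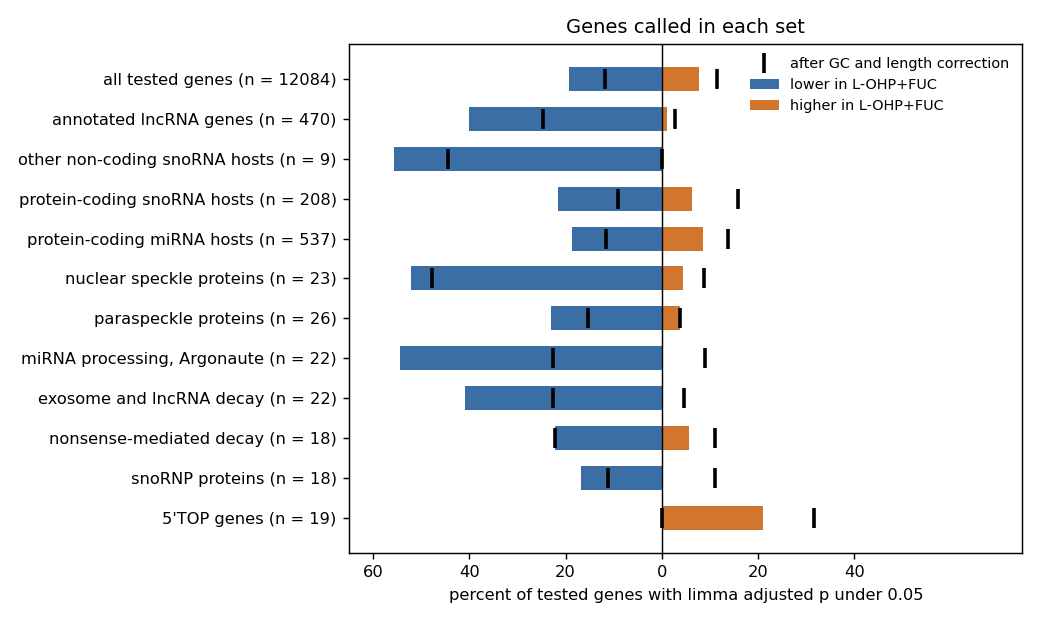
Percent of tested genes called lower (left, blue) or higher (right, orange) in L-OHP+FUC at a limma adjusted p under 0.05 in each set, with the same after the GC and length correction (black ticks) and the number tested beside each name. Of annotated lncRNA genes 188 of 470 were lower and of nuclear speckle proteins 52.2%, beside 19.3% of all tested genes, and 5′TOP genes have none lower.

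Genes for the proteins that work with these RNAs were described next, in the order of the RNAs. Of 26 paraspeckle protein genes 6 were lower and 1 was higher, led by Cpsf7, a cleavage factor subunit (log2 fold change -0.60, adjusted p = 0.0083), Ss18l1 (-0.40, adjusted p = 0.0214) and Zc3h6 (-0.59, adjusted p = 0.0269). Core paraspeckle proteins, added by name after their values were seen, did not pass: Sfpq had a log2 fold change of 0.03 (adjusted p = 0.874), Nono of -0.35 (adjusted p = 0.0622) and Pspc1 of 0.04 (adjusted p = 0.821). Neat1 was thus 3.33-fold lower beside a share of paraspeckle protein genes called lower (23.1%) that is close to the 19.3% of all tested genes. After the GC and length correction 4 (15.4%) were lower and 1 was higher, beside 11.9% of all tested genes called lower. The 7 calls of this list before it fell to 1 without L-OHP replicate 1, L-OHP+FUC replicate 1 or L-OHP+FUC replicate 2, to 4 without L-OHP replicate 3, and to 1 with no filter.

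Of 23 nuclear speckle protein genes 12 (52.2%) were lower, beside 19.3% of all tested genes, and 1, Prpf8, was higher. The median of the list was -0.46. Srrm2, a scaffold protein of speckles, was at 21.2, 18.2 and 23.7 FPKM with L-OHP and 6.52, 7.22 and 7.9 FPKM with L-OHP+FUC (log2 fold change -1.42, adjusted p = 0.00339). Pnn was at 13.9 ± 0.611 and 3.60 ± 1.05 FPKM (-1.72, adjusted p = 0.00339), and Pnisr at 8.60 ± 1.10 and 2.02 ± 0.649 FPKM (-1.69, adjusted p = 0.00378). After the GC and length correction 11 were lower and 2 higher. The 13 calls fell to 8 without L-OHP replicate 1, L-OHP+FUC replicate 1 or L-OHP+FUC replicate 2.

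Of 18 snoRNP protein genes 3 (16.7%) were lower and none higher, beside 19.3% of all tested genes called lower. These were Dkc1, the pseudouridine synthase dyskerin (log2 fold change -0.87, adjusted p = 0.0095), Nolc1 (-0.64, adjusted p = 0.0101) and Nop10 (-0.37, adjusted p = 0.0277). After the GC and length correction 2 were lower and 2 higher, and Nop10 stood at -0.17 (adjusted p = 0.233). Of 18 nonsense-mediated decay factors 4 (22.2%) were lower and 1 was higher, so both lists were near the background before the correction. The lower ones were led by Upf3b (-1.25, adjusted p = 0.00755), Upf2 (-1.40, adjusted p = 0.0099) and Smg1 (-1.09, adjusted p = 0.0105), which link the exon junction to the helicase Upf1 or phosphorylate it. After the correction 4 of these decay factors were lower and 2 higher, beside 11.9% of all tested genes called lower. Of 19 5′TOP genes outside the ribosomal proteins 4 (21.1%) were higher, beside 7.67% of all tested genes, and none lower. They were led by Eif3f (0.60, adjusted p = 0.00908), Eef2 (0.57, adjusted p = 0.0156) and Eif3l (0.33, adjusted p = 0.026), all parts of the translation machinery. Gas5, with such a motif at one of its starts, was lower. After the correction 6 genes of the 5′TOP list were higher and none lower, beside 11.5% of all tested genes called higher. The 4 calls of this list before it fell to 1 without L-OHP+FUC replicate 1 or 2 and to 2 without L-OHP replicate 1 or 3.

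Of 22 miRNA processing and Argonaute genes 12 (54.5%) were lower and none higher, beside 19.3% of all tested genes called lower. They were led by Tut4, a terminal uridylyltransferase (log2 fold change -1.04, adjusted p = 0.00797), and the silencing scaffolds Tnrc6b (-0.59, adjusted p = 0.0122) and Tnrc6a (-0.83, adjusted p = 0.0163). After the GC and length correction 5 (22.7%) were lower and 2 higher, beside 11.9% of all tested genes called lower, and Tnrc6b stood at -0.07 (adjusted p = 0.585). The 12 calls fell to 1 without L-OHP+FUC replicate 2, to 3 without L-OHP+FUC replicate 1 or L-OHP replicate 1, and to 6 without L-OHP replicate 3. Of 22 genes of the nuclear exosome and lncRNA decay 9 (40.9%, beside the same 19.3%) were lower and none higher. Zfc3h1, part of a nuclear complex that directs polyadenylated RNA to the exosome, was at 10.3, 8.54 and 11.6 FPKM with L-OHP and 1.23, 1.82 and 2.21 FPKM with L-OHP+FUC (-2.03, adjusted p = 0.00336). Zcchc7 (-0.98, adjusted p = 0.0083) and Rbm27 (-0.77, adjusted p = 0.0129) followed. After the correction 5 genes of this list were lower and 1 was higher, and the 9 calls fell to 2, 3, 4 and 6 without L-OHP+FUC replicate 2, L-OHP+FUC replicate 1, L-OHP replicate 3 and L-OHP replicate 1. Over the 10 lists, 64 of 169 genes passed, and 28, 26, 33 and 42 without L-OHP+FUC replicate 1, L-OHP+FUC replicate 2, L-OHP replicate 1 and L-OHP replicate 3. Of the 64, 24 passed in every alternative setting that tested them, among them Zfas1, Srrm2, Pnn, Pnisr, Zfc3h1, Upf2, Upf3b, Smg1, Tut4, Dkc1 and Eif3f. The lists were chosen with earlier results known and the settings reuse the same 6 libraries, so this is no sign of stability. The calls of Snhg17, Mir17hg, Prpf8, Eef2, Eif3l, Ss18l1, Zc3h6 and Nop10 were each lost in 5 to 10 of the settings.

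Across the neighbours of all 10 RNAs, 18 coding genes were tested, of which 3 were higher and 2 lower, a share close to the 27.0% of all tested genes. After the GC and length correction 3 were higher and none lower. Besides Slc3a2, Prpf8 and Rc3h1 these were D16Ertd472e, 6126459 bases from Mir155hg (log2 fold change 0.61, adjusted p = 0.0153), and Supt4a, a transcription elongation factor gene next to Mir142hg (-0.44, adjusted p = 0.0151). Without L-OHP+FUC replicate 1 the count fell to 2, and to 3 without L-OHP+FUC replicate 2 or without L-OHP replicate 1.

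The samples carried the markers of the labelled cells. All 10 macrophage markers were at 1 FPKM or more in the libraries, with summed levels of 12600 to 18000 FPKM with L-OHP and 13600 to 14600 FPKM with L-OHP+FUC. Lyz2 was the highest of them. Summed neutrophil markers were 3.79 to 4.26 and 5.45 to 6.35 FPKM, with Ly6g and Retnlg listed at 0 throughout, and summed osteoclast markers were 52.7 to 56.9 and 70.4 to 85.5 FPKM. Summed fibroblast or stroma markers were 4.62 to 11.5 and 7.28 to 7.63 FPKM, with 4 of 7 at 1 FPKM or more. Their part in the differences above was not tested. The steps between low values implied 31.7 to 37.5 M (mega) reads per library.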

How the data were processed

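Per the labels' protocols, total RNA was depleted of ribosomal RNA, fragmented and reverse transcribed from random primers. The submitters' processing notes name bcl2fastq 2.0, the HISAT2, StringTie, limma, DESeq2 and the build mm10, with no roles given. How reads were counted, whether strand was used and which annotation release served is not given in the sources used here. Each gene has the authors' FPKM in every library, per the file headers. The authors wrote 0 as 0.0001, which was undone here. The deposited table adds the authors' fold (ratio of mean FPKM), its log2, their p-value and q-value, and a mark of significance. Low values came out whole (within 0.05 reads) in 34.6% to 44.4% of cases, so reads were not recovered and no counting interval is given.

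Genes at 0.5 FPKM or more in at least 3 libraries were tested with limma 3.58.1 (R 4.3.3) on log2(FPKM + 1), with a single term for group, a trended empirical Bayes, two-sided, with Benjamini-Hochberg adjustment over all 12084 genes at 0.05. This scale understates the change of low genes. Positions, biotypes and GC content come from GENCODE M21 (GRCm38, matched for 99.5% of rows), and miRNA and promoter sequences from RefSeq. The GC and length correction subtracted a loess trend (span 0.3) from each library. The code was tested on simulated data. The members and the 10 lists were chosen with earlier results of these data known. Named were all members, up to 3 genes with the smallest p in each list, small RNA rows at 1 FPKM or more, and neighbours that passed, besides a few other genes added beside them. In alternative settings the pseudocount, filter, scaling, moderation, base composition, replicate block and libraries were varied. Some genes of the lists and some neighbours are not reported here.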

Additional observations from a re-analysis of the deposited data

How the results depend on the processing

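The 10 RNAs were chosen from these values, so how often they pass the threshold is no sign of stability, and only the losses are given. Snhg1 lost its call in 2 of 14 settings, among them without L-OHP replicate 1 (-0.75), Mir22hg in 4 of 15 and Snhg12 in 9 of 14. For Mir22hg these included leaving out L-OHP replicate 1 (-0.45) and L-OHP+FUC replicates 1 (-0.39) and 2 (-0.49). For Snhg12 they included leaving out any library other than L-OHP replicate 2 (-0.64 to -0.43). Without L-OHP replicate 1, 6 of the 10 RNAs were called. The log2 fold change of Neat1 ranged from -1.87 to -1.13, that of AU020206 from -1.72 to -1.48 and that of Mir142hg from 1.82 to 3.79. Of 9 RNAs called, 5 remained at a mean of at least 5 FPKM, where fewer were tested, and 1 (AU020206) when RNAs that overlap another annotated row on the same strand were left out.

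Counts below run in the order all tested genes, other lncRNA genes, protein-coding snoRNA hosts, protein-coding miRNA hosts and genes of the lists, which numbered 3262, 193, 58, 146 and 64 as reported. Without a filter they were 2080, 116, 27, 85 and 36, and at a mean of at least 5 FPKM 1720, 26, 36, 91 and 37, where fewer genes were tested. Quantile normalization gave 113 for the other lncRNA genes. The cause of these shifts was not tested. Leaving out 1 library gave 1101 to 3377, 94 to 183, 14 to 61, 50 to 162 and 26 to 61. The neighbours went from 5 to 3 at a mean of at least 5 FPKM and under the GC and length correction, with or without the replicate block, and to between 2 and 5 without 1 library.

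The replicate numbers are not said to pair the samples, and deviations of same-numbered libraries correlated at -0.0365, -0.0711 and 0.0827, so they were not treated as pairs. With the replicate block the counts were 2316, 150, 37, 102 and 47, and with the block and the GC and length correction 1460, 91, 27, 71 and 34. Estimated reads of Mir142hg and Mir155hg were few, and their values are limited by this.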
